A study of Solanum tuberosum with 12 samples.

Results

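Potato (Solanum tuberosum) shoot tips that had been frozen, rewarmed and placed under red and blue light-emitting diodes (LEDs) were compared with tips that had never been frozen. The comparison used 6 of the 12 RNA sequencing libraries of the study, which were the 3 labelled as cryopreserved under LEDs and the 3 labelled as non-cryopreserved under cool white fluorescent light. All libraries came from 1 genotype, Agrie Dzeltenie, and each pooled 10 tips from in vitro plants that were 3.5 weeks old. The count tables list 39027 genes. Reads from any of these 6 libraries fell on 26599 of them, and 19920 had enough reads over the whole study to be tested.

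The groups differed in more than freezing. Cryopreserved tips had spent 2 h in a cryoprotectant of 10% dimethyl sulfoxide (DMSO) with 30% sucrose, 1 h in liquid nitrogen and 1.5 h in rewarming medium. They then stood for 48 h in darkness on a regeneration medium that carried zeatin riboside at 0.5 mg/l, gibberellic acid (GA3) at 0.2 mg/l and indole acetic acid (IAA) at 0.5 mg/l. Finally they received 16 h of light that was 90% red and 10% blue. Non-cryopreserved tips were trimmed to 1 mm and received 16 h of cool white light at the same intensity of 40 µmol per square metre per second. The labels name neither the regeneration medium nor the dark period for them. Freezing, hormones, the dark period and the light source therefore cannot be told apart in this comparison. Cryopreserved tips that recovered under cool white light or in continued darkness, 3 libraries each, were used to test where the LED libraries differed from other recovery conditions.

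Cryopreservation exposes a shoot tip to sugar and solute stress, water loss, extreme cold and wounding, and only part of the cells may survive to rebuild the meristem. Plants sense red light through phytochromes and blue light mainly through cryptochromes and phototropins, and light also drives chloroplast development and photosynthesis. The gene identifiers carry no names in the files, and 0 of them matched the RefSeq gene table used here. Genes are therefore described by how many changed, by how much and in which libraries, with 4 identifiers as examples. For the same reason the labelled tissue was not checked against marker genes. In bulk samples, fewer cells of a type and less RNA per cell cannot be told apart.

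The LED libraries held 10572258, 6524085 and 9614471 counted reads and the non-cryopreserved libraries 6342324, 8140225 and 7682729. When every library was thinned to the smallest of these totals, slightly more genes were detected under LEDs, with 23699 ± 93.9 (SD, n = 3) against 23429 ± 145 (SD, n = 3) in non-cryopreserved tips. Each LED library lay above each non-cryopreserved library, with p = 0.1 in an exact permutation test (two-sided), the lowest value that 3 against 3 libraries can give.

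Cryopreserved tips under LEDs differed from non-cryopreserved tips in about as many genes as did not pass the test. Of the 19920 genes, 5436 were higher (27.3%) and 4650 lower (23.3%), together 10086 or 50.6%, by edgeR's quasi-likelihood test at a Benjamini-Hochberg adjusted p under 0.05. Most differences were modest. The median called increase was a log2 fold change of 0.87, or 1.82-fold, and the quartiles of the increases were 0.52 and 1.47. The median called decrease was -0.74 on the log2 scale, or 1.67-fold, with quartiles of -1.07 and -0.50. The excess of higher over lower genes turned under upper quartile scaling, with 4778 higher and 5277 lower.

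**Figure D1:**
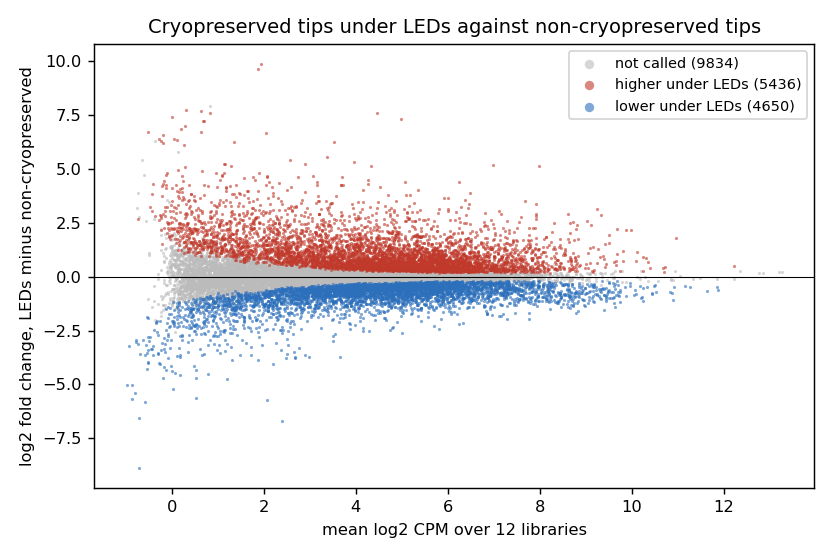
Each point is a tested gene, with its mean log2 CPM (counts scaled to library size) over 12 libraries on the horizontal axis and its log2 fold change, LEDs minus non-cryopreserved, on the vertical axis. The 5436 red and 4650 blue genes were called, and small differences were called mainly among genes with many reads.

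Most called genes separated the 6 libraries completely. Calls and separation rest on the same libraries, so that a call favours separation, and the shares are a description. For 11199 genes, or 56.2% of those tested, the values of the 3 LED libraries all lay on one side of the 3 controls. The share was 93.1% among called increases, 96.3% among called decreases and 16.9% among genes that were not called. The last set of 1664 genes was split between 781 with all LED libraries above and the remainder with all LED libraries below.

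Large differences were more often increases. A 2-fold difference was reached by 2332 higher and 1366 lower genes, a 4-fold difference by 757 and 254, and a 16-fold difference by 92 and 27. Thus 42.9% of the increases and 29.4% of the decreases reached 2-fold, and 13.9% and 5.46% reached 4-fold. Of the 92 genes, 19 had no read in the non-cryopreserved group, and 81 of the 92 still reached 16-fold when such genes were set to the lower bound that 3 reads over that group (0.137 CPM) would give. Of the 27 decreases, 1 had no read under LEDs, and all 27 stayed at 16-fold or more at the corresponding bound of 0.110 CPM. The largest classes rested in part on single libraries. Without LED replicate 3 the 92 increases of at least 16-fold became 58. Without LED replicate 1 the 254 decreases of at least 4-fold became 391, and the 27 of at least 16-fold became 61. Testing genes with any read at all, in place of those passing the count filter, gave 185 increases and 95 decreases of at least 16-fold and 427 decreases of at least 4-fold.

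**Figure D2:**
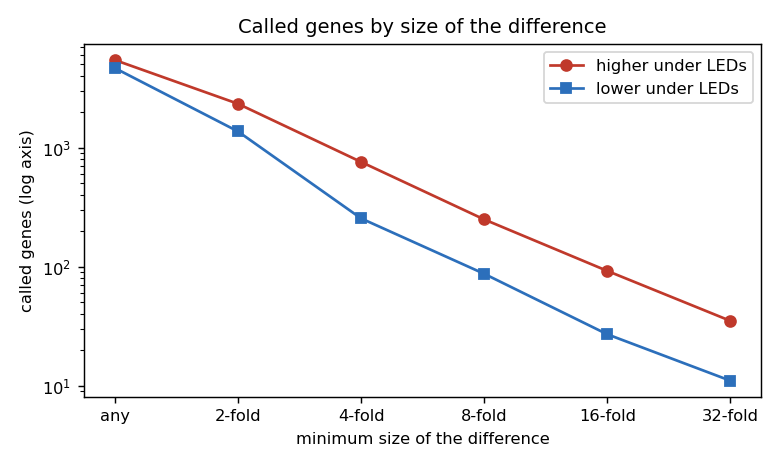
The number of called genes (vertical log axis) is plotted against the minimum size of the difference, separately for genes higher and lower under LEDs. The lines start at 5436 and 4650 and part with size, reaching 92 and 27 at 16-fold.

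The balance of directions differed between genes with many and with few reads. Genes were placed in classes by their mean CPM, which is the count relative to library size after TMM scaling, over all 12 libraries. Increases outnumbered decreases in the 6 classes under 300 CPM with TMM or with library size alone. Upper quartile scaling turned 4 of these classes and DESeq2 size factors turned 1, that of 10 to 30 CPM, with 1419 higher and 1431 lower. Between 30 and 100 CPM, 35.7% of 4923 genes were higher and 26.6% lower, and between 100 and 300 CPM, 37.1% of 1541 genes were higher and 31.7% lower. Among the 478 genes at 300 CPM or more the balance was the other way, with 28.7% higher and 47.7% lower, or 137 and 228 genes. The median log2 fold change of these 478 genes was -0.20, beside 0.03 over all tested genes. The median stayed between -0.26 and -0.16 under the other scalings and filters, with DESeq2, limma voom and the replicate block, at equal depth, with the 6 libraries alone and with each of them left out, and lower genes outnumbered higher ones in these. The balance turned with the size of change asked for, but the change itself helps decide the class. Most of the 12 libraries behind the mean CPM were cryopreserved, so a large increase raises that mean and a large decrease lowers it. Large decreases are thereby moved out of the top class, and how much of the turn this makes up was not tested. A test for a change above 2-fold (edgeR's glmTreat, applied by class after seeing the data) called 43 of the 478 genes higher and 12 lower. Over all 19920 tested genes it called 960 higher and 382 lower, so a lead of increases at this size is not particular to the class. Differences of at least 4-fold were 21 increases and 0 decreases among the 478 genes, beside 757 and 254 over all tested genes. The 2-fold test also turned the class under 1 CPM, with 12 higher and 27 lower of 322 genes. Genes with so low a mean pass the count filter mainly when a few libraries hold most of their reads. Of the 12 libraries 3 were non-cryopreserved, so a decrease shared by all cryopreserved groups passes more easily here than a shared increase. Nothing is read from this turn.

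The share of genes called was 32.9% of the 322 genes under 1 CPM and 30.6% of the 2867 genes between 1 and 3 CPM, and from there it was higher in each class, up to 76.4% of the 478 genes at 300 CPM or more. The median standard error of the log2 fold change was 0.63 in the first of these classes, 0.42 in the second and 0.10 in the last. The count filter favours genes that are uneven between libraries in the first class, so its share called is not read against the others. Large differences were concentrated among genes with few reads, by a mean CPM that a large change itself moves. Of the 757 increases of at least 4-fold, 204 were between 1 and 3 CPM and 218 between 3 and 10 CPM, and 21 were at 300 CPM or more. Of the 254 decreases of that size, 103 lay between 1 and 3 CPM and 2 between 100 and 300 CPM.

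**Figure D3:**
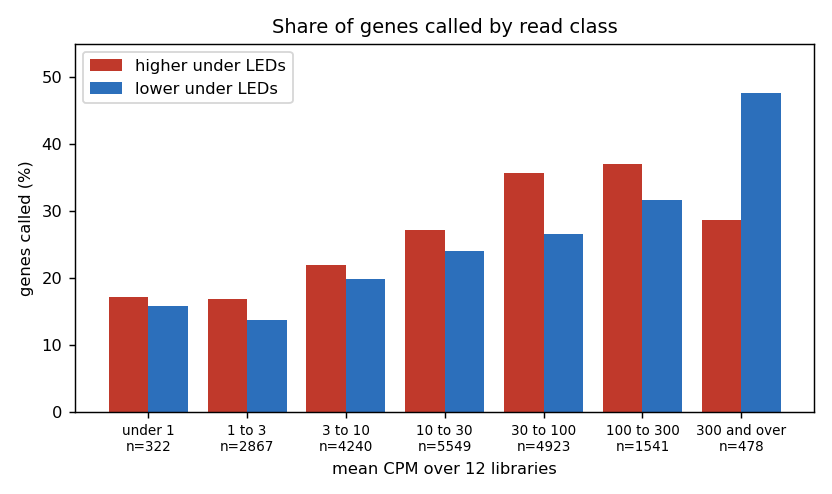
Bars give the percentage of tested genes that were called higher or lower under LEDs, in 7 classes of mean CPM over 12 libraries, with the number of genes under each class. With TMM scaling higher genes lead in the first 6 classes, 4 of which turn under upper quartile scaling. At 300 CPM and over 47.7% were lower and 28.7% higher, a balance that turns to 12 lower and 43 higher genes when a change above 2-fold is tested. Over all tested genes that test also called more increases, with 382 lower and 960 higher. A large change itself moves a gene between classes.

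The share of reads held by leading genes was compared next. The 100 most abundant genes of each library took 17.4% of the reads in LED replicate 1, 17.6% in replicate 2 and 17.6% in replicate 3. In the non-cryopreserved libraries they took 20.0%, 18.4% and 18.7% in the same order. All LED libraries lay below all non-cryopreserved ones, with a mean of 17.5% ± 0.149 (SD, n = 3) against 19.0% ± 0.838 (SD, n = 3) with p = 0.1 in the same exact permutation test. The 10 most abundant genes took 6.48% ± 0.211 under LEDs and 5.98% ± 0.469 in non-cryopreserved tips (SD, n = 3), the libraries overlapped and the exact permutation p was 0.2. The lists of leading genes, ranked by mean share in each group, had 9 of 10 and 63 of 100 genes in common.

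The amount of the RNA pool that changed hands was measured between pairs of libraries as the smallest percentage of reads that would have to be assigned to other genes to make their profiles equal. It ranged from 14.2% to 22.7% with a median of 20.6% over the 9 pairs of an LED and a non-cryopreserved library. Pairs of non-cryopreserved libraries differed by 5.14% to 7.12% and pairs of LED libraries by 6.50% to 10.2%. Every pair across these groups was further apart than every pair within either of them. Summed over genes on the TMM-scaled values, the called increases amounted to 14.98% of a library's reads and the called decreases to 18.3%. Many genes carried this, with 397 of the increases making up 50% of the gain and 245 of the decreases 50% of the loss. The 10 largest contributors held 6.99% of the gain and 6.88% of the loss.

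Some genes had reads in only 1 group of this comparison. A read in every LED library and none in any non-cryopreserved library was found for 187 genes, and the opposite for 76 genes. Of the 187, 103 had a read in every cool white library and 79 in every dark library, while 10 and 17 had none there. Of the 76, the cool white libraries all had a read for 10 and the dark libraries for 6, while 23 and 32 had none there. Most genes of both sets were near the limit of detection, with medians of 8 and 8.5 reads over the 3 libraries. At least 30 reads were reached by 19 of the 187 and by 2 of the 76. The LED group had more reads in all, 26710814 against 22165278. With each library thinned to 6342324 reads the counts were 166 and 105 genes, of which 14 and 6 had at least 30 reads. Leaving out any 1 library, which relaxes the requirement, gave 258 to 363 genes for the first set and 114 to 168 for the second. An absence is known only down to 3 reads over a group, a limit that covers counting error only.

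The 4 example genes were taken by rule among called genes that separated the 3 LED libraries fully from the 3 controls. For the first pair, at least 10 reads in each of the 6 libraries were required, so that the size of the change does not rest on absent reads.

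PGSC0003DMG400005108 showed the largest log2 increase of such genes. It stood at 6.24, 8.41 and 8.39 CPM in the non-cryopreserved libraries and at 147, 190 and 507 CPM in the LED libraries. Even the lowest LED library was far above every non-cryopreserved one, while LED replicate 3 lay well above its companions. The log2 fold change was 5.18 (SE 0.47), or 36.3-fold, at an edgeR adjusted p of 1.96e-06, and 4.44 without LED replicate 3. The gene was also high in the other cryopreserved groups, at 316 ± 109 CPM under cool white light and 435 ± 57.8 CPM in darkness (SD, n = 3). The direct edgeR tests of LEDs against these groups gave log2 differences of -0.17 (adjusted p = 0.865) and -0.63 (adjusted p = 0.307).

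PGSC0003DMG400002101 showed the largest log2 decrease among genes with at least 10 reads in each library. It was steady without cryopreservation, at 34.3, 35.1 and 32.6 CPM, and fell to 1.85, 3.02 and 2.78 CPM in the LED libraries. The groups were far apart, at 34.0 ± 1.26 CPM without cryopreservation and 2.55 ± 0.618 CPM under LEDs (SD, n = 3). In proportion to its mean, the LED group was the more spread. It held 67 reads of this gene against 746 in the non-cryopreserved group, and the part of counting error in that spread was not tested. The log2 fold change was -3.76 (SE 0.28), or 13.6-fold lower, at an edgeR adjusted p of 5.44e-07. In darkness the gene kept a higher level, at 4.74, 4.47 and 9.77 CPM, and the direct edgeR test of LEDs against darkness gave a log2 difference of -1.32 with an adjusted p of 0.0171. The dark libraries lay above all LED libraries. Under cool white light it was at 2.78 ± 0.920 CPM (SD, n = 3).

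PGSC0003DMG401025083 gained the most reads of any gene that met the rule. The non-cryopreserved libraries were at 720, 699 and 617 CPM. The LED libraries reached 1385, 2533 and 3188 CPM. All LED libraries lay above all non-cryopreserved ones, with LED replicate 1 the lowest of its group. The log2 fold change was 1.80 (SE 0.21), or 3.49-fold, at an edgeR adjusted p of 1.29e-05. Darkness gave 4194 ± 211 CPM (SD, n = 3), and LEDs were below darkness by a log2 difference of -0.82 (adjusted p = 0.0202, edgeR). Cool white light gave 2455 ± 149 CPM (SD, n = 3), from which LEDs differed by -0.05 on the log2 scale (adjusted p = 0.935, edgeR).

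PGSC0003DMG400022159 lost the most reads. It took 5537, 4952 and 5098 CPM in the non-cryopreserved libraries and 4233, 3305 and 2779 CPM in the LED libraries. In proportion this was a small change, a log2 fold change of -0.60 (SE 0.14), or 1.51-fold lower, at an edgeR adjusted p of 0.00286. The libraries did not overlap, with LED replicate 1 nearest to the controls.

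**Figure D4:**
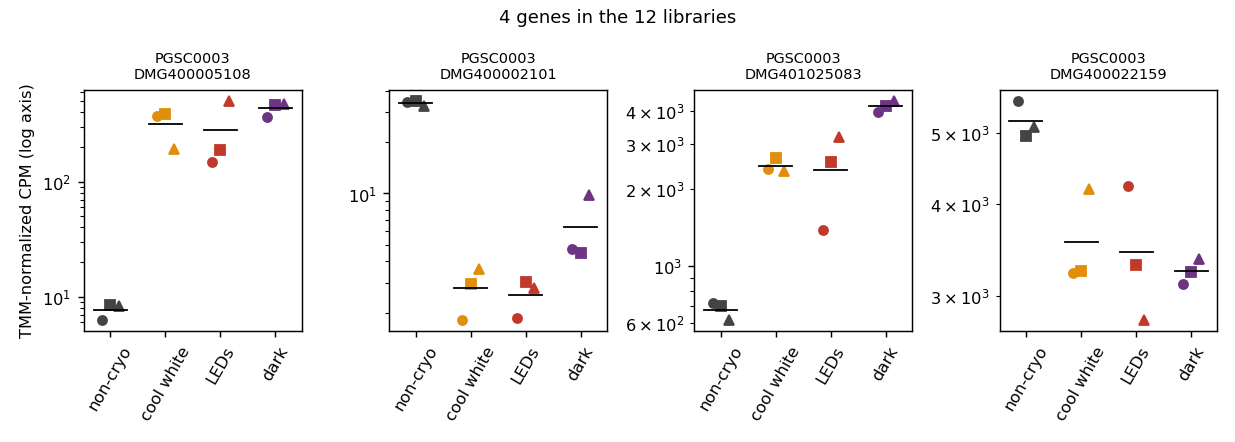
TMM-normalized CPM (log axes, each panel with its own range) of 4 genes in all 12 libraries, with circles, squares and triangles for replicates 1, 2 and 3 and a line at the group mean. In PGSC0003DMG400005108 the LED libraries spread from 147 to 507 CPM, all above the non-cryopreserved libraries at 6.24 to 8.41 CPM.

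The LED libraries differed among themselves more than those of the other groups. Fitted within a group, the biological coefficient of variation was 17.9% under LEDs, 12.1% in non-cryopreserved tips, 9.60% under cool white light and 11.1% in darkness. The gap was smaller for a typical gene. Over 12491 genes with a mean of at least 10 CPM, the median coefficient of variation was 10.8%, 9.24%, 7.83% and 8.74% in the same order. LED replicates 1 and 3 were the least alike, with r = 0.964 across genes in log2 CPM, while replicate 2 correlated at 0.976 with each of them (genes are not independent replicates). Against the 3 non-cryopreserved libraries, LED replicate 1 needed 14.2% to 17.0% of reads reassigned, replicate 2 18.4% to 21.0% and replicate 3 20.6% to 22.7%. These ranges of replicate 1 and replicate 3 do not overlap. These libraries held 10572258, 6524085 and 9614471 reads in the same order, and the part of depth in these ranges was not tested.

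This difference ran along the shift of the other cryopreserved groups from non-cryopreserved tips. Freezing, the cryoprotectant, hormones and the dark period cannot be told apart in that shift. A list was formed without any LED library, from genes called at least 2-fold in the same direction in both other cryopreserved groups against non-cryopreserved tips, which gave 1970 higher and 826 lower genes. Relative to the non-cryopreserved mean, the median log2(CPM + 1) of the 1970 genes was 1.01 in LED replicate 1, 1.34 in replicate 2 and 1.56 in replicate 3. The median of the 826 genes was -1.02, -1.34 and -1.44 in the same libraries. Replicate 1 therefore showed the weakest and replicate 3 the strongest shift in both directions. The cool white libraries ranged from 1.25 to 1.49 and from -1.35 to -1.14, and the dark libraries from 1.41 to 1.49 and from -1.41 to -1.32. Those groups chose the list, and all values share the same control libraries.

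Set directly against each other, LED replicate 3 was above replicate 1 in 83.5% of the 1970 genes, with a median log2 difference of 0.57. It was below replicate 1 in 84.3% of the 826 genes, with a median of -0.41. Over all tested genes replicate 3 was above replicate 1 in 46.2%, with a median difference of -0.03.

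**Figure D5:**
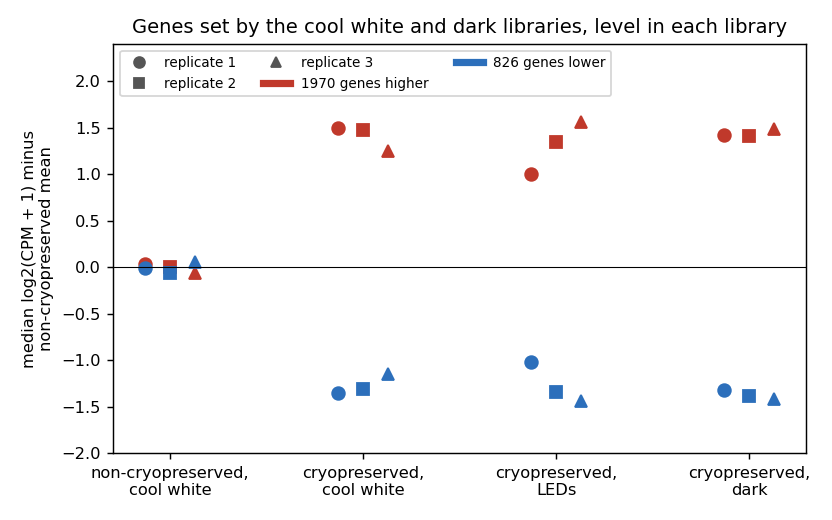
For each library, the median over 1970 genes (red) and 826 genes (blue) of log2(CPM + 1) minus the non-cryopreserved mean, with the genes chosen on the cool white and dark libraries. LED libraries spread from 1.01 to 1.56 and from -1.02 to -1.44, wider than the libraries of either other cryopreserved group.

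Among the strongest increases, replicate 3 was often the library with most of the reads. Among the 92 genes at least 16-fold higher under LEDs, 1 library held over 50% of the group's CPM for 56 genes, and for 51 of these it was replicate 3. Among the 665 genes that were 4-fold to 16-fold higher this was so for 205, of which 178 were highest in replicate 3. Over all tested genes 1202, or 6.03%, were held in this way, 568 of them by replicate 3. The 92 and 665 genes were chosen on the mean of the LED libraries, so that a high value in 1 of them helps a gene into these sets, and their shares are a description. Genes at least 3-fold above both companions, on CPM + 1, numbered 39 in replicate 3, 7 in replicate 1 and 0 in replicate 2. Of the 39 in replicate 3, 27 were called higher and 0 lower, beside 27.3% higher over all tested genes, but a high value in an LED library favours that call, and nothing is read from it. Non-cryopreserved replicate 2 also had 39 such genes, of which 10 were called higher and 2 lower, and 0 of them were among the 39 of LED replicate 3.

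Where the LED response departed from that under the other recovery conditions was tested directly between the cryopreserved groups, since the difference of 2 comparisons with the same controls is the difference between the treated groups. Between LEDs and cool white light, 287 genes or 1.44% were called in edgeR's quasi-likelihood test. Between LEDs and darkness it was 2118 genes or 10.6%. The first count was fragile. Leaving out cool white replicate 1, 2 or 3 cut it to 95, 19 and 81 genes, leaving out LED replicate 2 to 85, and DESeq2 gave 726. The second fell to 1211 without LED replicate 2, 1318 without dark replicate 1 and 1295 without dark replicate 3.

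The 212 genes lower under LEDs than under cool white light had a median log2 difference from non-cryopreserved tips of -0.42 under LEDs, 0.53 under cool white light and -0.57 in darkness. Their median was thus below the control level under LEDs and in darkness and above it under cool white light. For the 75 genes higher under LEDs than under cool white light the medians were 0.46, -0.15 and 0.26. The LED and cool white libraries chose these genes, which sets their values apart by construction, and all 3 values share the control libraries. The dark libraries took no part in that choice beyond the shared estimate of spread. Leaving out cool white replicate 1, 2 or 3 changed the 212 to 81, 19 and 67, and leaving out LED replicate 2 changed it to 71. DESeq2 called 301 higher and 425 lower genes, and edgeR with the replicate number as a block 21 and 114. The 75 became 40 without LED replicate 1 and 14 without LED replicate 2, cool white replicate 1 or cool white replicate 3. Without cool white replicate 2, 0 genes were called higher by edgeR, 2 by limma voom and 49 by DESeq2. Among all 20270 genes tested in that setting, 952 were higher at an unadjusted edgeR p under 0.05.

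The 1429 genes higher under LEDs than in darkness had a median log2 difference from non-cryopreserved tips of -0.13 under LEDs and -1.14 in darkness. For the 689 genes lower under LEDs than in darkness the medians were -0.02 and 0.52. In both lists the LED median lay nearer to the non-cryopreserved level than the dark median did. This holds for the medians only, since called increases and decreases offset each other in them. With LEDs set against the controls, 225 of the 689 genes were called increases, 246 were called decreases and 218 were not called. For the 1429 genes these counts were 314, 415 and 700. Over all tested genes 27.3% were called increases, 23.3% were called decreases and 49.4% were not called. The lists were chosen on the LED and dark libraries, and the LED and dark medians share the controls. The 1429 genes became 878 without LED replicate 2 and 937 without dark replicate 1. The 689 became 333 and 1065 without LED replicate 2 or 3, and dark replicate 1 or 3 left out gave 381 and 335.

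Grouped by the size of the LED difference, the other cryopreserved groups had medians close to that of the LED libraries for increases. In the 92 genes at least 16-fold higher the median log2 difference from non-cryopreserved tips was 4.67 under LEDs, 4.62 under cool white light and 4.54 in darkness, or 4.40, 4.37 and 4.26 with genes lacking reads in a group at their bound. In the 665 genes 4-fold to 16-fold higher it was 2.52, 2.53 and 2.50. For decreases the medians stood further apart. In the 227 genes 4-fold to 16-fold lower it was -2.49 under LEDs, -2.18 under cool white light and -2.63 in darkness, and in the 27 genes at least 16-fold lower it was -4.70, -3.75 and -4.58. The direct edgeR test of LEDs against cool white light called 0 of the 27 genes. It called 11 of the 227 (4.85%), all lower under LEDs, beside 1.44% over all tested genes. Among the increases it called 0 of the 92 genes, and 3 higher and 3 lower of the 665 (0.902%). Against darkness, 12 of the 227 were called higher and 14 lower under LEDs (11.5%), beside 10.6% over all tested genes. These values share the control libraries. The genes were chosen on the LED libraries, which favours lower LED values among the decreases. Whether the classes differ between lights was not tested as a set.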

How the data were processed

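RNA sequencing counts of 12 libraries in 4 groups of 3 biological replicates were used. The values are whole-number counts of reads, deposited by the authors without scaling in a separate table for each library. Among the tools named in the submitters' processing notes are featureCounts 1.5.0 and TopHat2 2.0.8b, together with Bowtie 1.1.1; DESeq2 1.14.1 and FastQC 1.11.2 are also named. The labels' protocols give a stranded mRNA kit. For the build, the annotation, the strand setting and multi-mapping reads, nothing is given in the sources used here. Values of genes that overlap, lie antisense or have near-identical copies are uncertain for that reason. Of the 39027 identifiers, 0 matched the 32873 genes of the RefSeq table (assembly SolTub_3.0).

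In R 4.3.3, genes were kept by filterByExpr of edgeR 4.0.16 (minimum count 10, minimum total 15), scaled by TMM and tested across all 19920 genes with glmQLFit and glmQLFTest on all 12 libraries with group as the factor (8 residual degrees of freedom). Tests were two-sided, with Benjamini-Hochberg adjustment and a threshold of 0.05. Standard errors were computed back from each fold change and its F statistic. Library totals ran from 6342324 to 10572258 reads. The script was tested on simulated counts. The 4 named genes are the largest log2 increase and decrease with at least 10 reads in each of the 6 libraries and the largest CPM gain and loss, all among called genes without overlap. Alternatives were other scalings, filters and tests (DESeq2 1.42.0, limma 3.58.1 voom), fewer libraries, a replicate block and a minimum change of 2-fold. The comparison, lists and rules were chosen with earlier results of these data known.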

Additional observations from a re-analysis of the deposited data

Results flagged for a closer look

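Direct tests found 287 genes whose difference from non-cryopreserved tips differed between LEDs and cool white light, and 2118 genes for which it differed between LEDs and darkness. Of the 4 named genes, PGSC0003DMG400002101 was lower under LEDs than in darkness by a log2 difference of -1.32, and PGSC0003DMG401025083 by -0.82, both by edgeR's quasi-likelihood test.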

How the results depend on the processing

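The count of 10086 genes called between LEDs and non-cryopreserved tips stayed within 1.5-fold under other scalings, filters and tests, when only the 6 libraries were fitted, and at equal depth, an alternative chosen after seeing the data. Leaving out 1 library gave 8545 to 10275 calls, with 4564 to 5463 higher and 3927 to 4812 lower genes. Testing for a minimum change of 2-fold left 1342 genes, 960 higher and 382 lower, since that test asks for larger changes. The 4 named genes kept their direction and their call in all 16 alternatives tried for each, which did not include the 2-fold test. They were chosen among called genes of these same libraries, which favours keeping the call. Between LEDs and cool white light, the count of 287 became 446 with no filter, 726 with DESeq2, and 93 when only the 6 libraries were fitted, and 19 to 310 without 1 library. Between LEDs and darkness, 2118 became 1263 with only the 6 libraries, and 1211 to 2994 without 1 library. The cause was not tested. The difference in genes detected at equal depth stayed positive, at 201 to 346 without 1 library. The difference in the share of the 10 most abundant genes was 0.299 to 0.760 percentage points without 1 library, and -1.49 for the 100 most abundant, which is another quantity. With 2 against 3 libraries these exact permutation tests cannot go below 0.1.

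The replicate number as a block gave 9844 calls between LEDs and non-cryopreserved tips, 135 between LEDs and cool white light (21 higher, 114 lower) and 1944 between LEDs and darkness. The numbers do not pair the samples in the labels, and deviations of same-numbered LED and non-cryopreserved libraries correlated at -0.16, 0.05 and -0.07 across genes. LED replicate 1 correlated best with non-cryopreserved replicate 3, at 0.17. The median standard error was largest for genes under 1 CPM, at 0.63, followed by those between 1 and 3 CPM with 0.42. The part of depth in this was not tested.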
